A study of Mus musculus with 6 samples.

Results

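The genes described here are 40 genes of the cell division cycle, a fixed list of symbols drawn up with earlier results of these data known, out of 23329 gene symbols counted in each library. They comprise 24 genes that act in G2 phase and mitosis or mark dividing cells, 10 genes of DNA replication and nucleotide supply, and 6 genes of the G1 phase and its exit. RNA was sequenced from endothelial cells isolated with magnetic beads (MACS) from the brains of C57BL/6 mice aged 8 weeks and never cultured. The study compared 3 wild-type (WT) libraries with 3 libraries from littermates labelled GLUT1EC-/-, in which Slc2a1, the gene of the glucose carrier GLUT1, was deleted in endothelial cells. The labels name neither the Cre driver nor the deleted exons. They give each library a number in its title but do not say whether each is 1 mouse, so p-values measure only the spread between these libraries.

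A dividing cell copies its DNA in S phase and separates the copies in mitosis, and the genes for these steps are switched on in waves. E2F factors turn on the replication genes near the end of G1, and the MuvB complex with B-Myb and FoxM1 turns on the mitotic genes later. In resting cells the DREAM complex keeps both waves low. The endothelium of the adult brain is known to divide very little, while some replication proteins such as PCNA also serve DNA repair.

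Total counts ranged from 31874662 to 39424384 per library, and the 40 genes together took 0.0763% to 0.108% of them. Slc2a1 did not separate the groups, with 3983, 4478 and 4171 CPM (counts scaled to the library's TMM-adjusted total) in WT and 3734, 5413 and 3891 CPM in GLUT1EC-/- (log2 fold change 0.05 with SE 0.18, edgeR adjusted p = 0.921), so every direction below is between libraries as labelled. The 10 endothelial markers summed to 14578 to 17308 CPM in every library, with none called. Single markers moved both ways within that sum. In all 3 GLUT1EC-/- libraries Tek, Flt1 and Emcn were below every WT library and Pecam1 was above. Over all genes 11.2% were lower and 11.7% higher in that way. Flt1, the most abundant, had a log2 fold change of -0.40 with SE 0.14 (edgeR adjusted p = 0.237). GLUT1EC-/- 2 stood apart from the rest: the mean r of its log2 CPM with its own group, taken over genes, was 0.964, where the other 5 libraries had 0.972 to 0.989. Results that rest on it are given with and without it.

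The mitotic genes were low in all 3 WT libraries and several-fold higher in GLUT1EC-/- 1 and 3. Relative to the WT mean, the median mitotic gene stood at 7.28-fold in GLUT1EC-/- 1 and 4.96-fold in GLUT1EC-/- 3, but at 1.48-fold in GLUT1EC-/- 2. The replication genes were closer to the WT level, with medians of 1.27-fold, 0.854-fold and 1.51-fold in GLUT1EC-/- 1, 2 and 3. The G1 genes had medians of 1.25-fold, 1.07-fold and 1.25-fold. Over all genes tested these medians were 0.995-fold, 0.987-fold and 0.9996-fold. In the fit over all genes, Kif15 and Mki67 rose and no member fell.

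**Figure D1:**
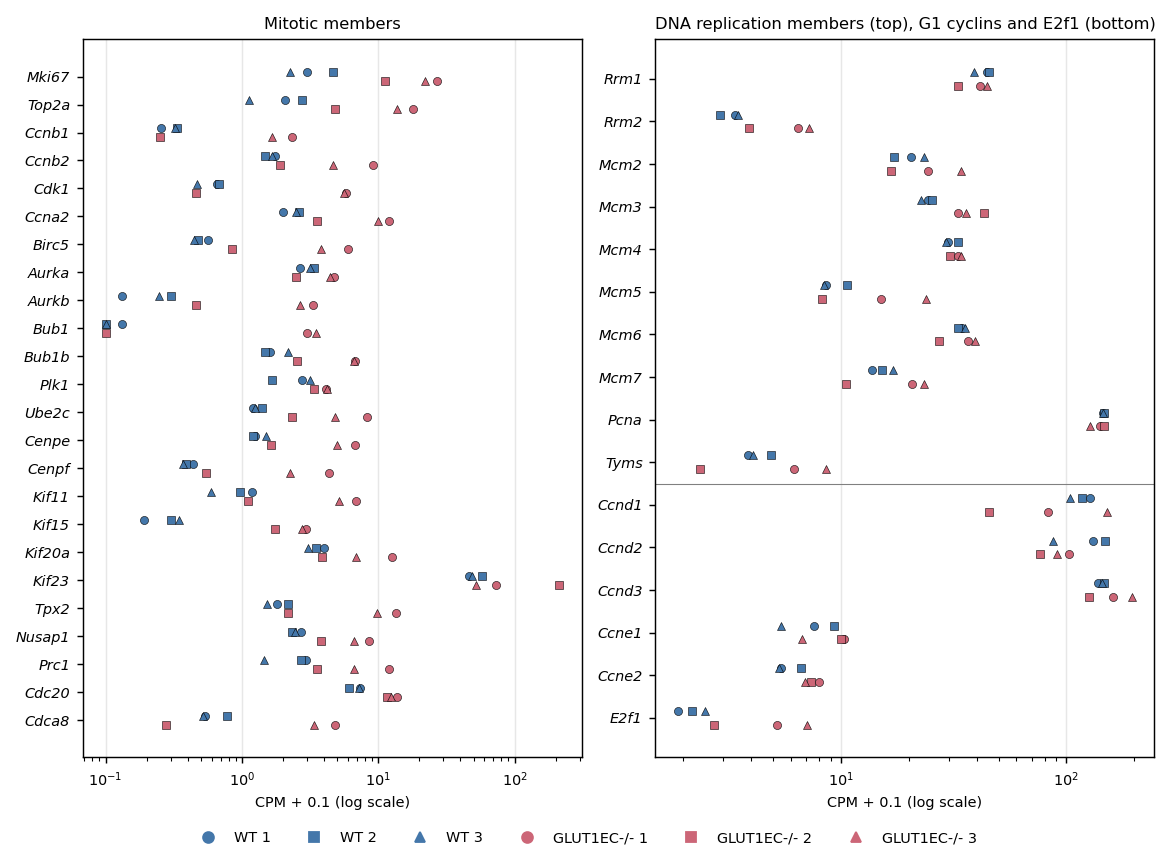
CPM of each of the 40 members in each of the 6 libraries, on a log axis after adding 0.1. Blue symbols are WT and red symbols GLUT1EC-/-, with circles, squares and triangles for replicates 1, 2 and 3. Red circles and triangles lie far to the right for most mitotic members, while red squares (GLUT1EC-/- 2) mostly lie closer to the blue ones.

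The test was edgeR's quasi-likelihood test on 14838 genes with Benjamini-Hochberg adjustment at 0.05. It called 128 genes higher in GLUT1EC-/-, or 0.863% of those tested, and 0.445% lower. Of the 38 members that passed the filter on low counts, 2 rose and 36 did not pass. Of the 22 mitotic members tested, 2 rose and 20 did not pass. All 22 had a fitted log2 fold change above 0, as did 51.5% of all genes, and 15 had all 3 GLUT1EC-/- libraries above all 3 WT libraries, against 11.7% of all genes. At an unadjusted p under 0.05, 20 of these 22 were higher, against 8.16% of all genes. Aurkb and Kif15 are among the 22, the 15 and the 20. These 2 genes passed the filter only through the GLUT1EC-/- libraries, so the filter itself favoured their direction. None of the 10 replication genes passed with edgeR or limma-voom and 1 passed with DESeq2, and 2 of 10 were higher at an unadjusted p under 0.05. None of the 6 G1 genes passed with edgeR or limma-voom and 1 passed with DESeq2, and 1 of 6 was higher at an unadjusted p under 0.05.

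The calls depended on single libraries. Without GLUT1EC-/- 2, edgeR called 25 of 40 members higher, against 3.52% of all genes, of which 21 were mitotic, 3 were replication genes (Rrm2, Mcm3 and Mcm5) and 1 was E2f1. It called 0 members without WT 1, WT 2, WT 3 or GLUT1EC-/- 1, where 0%, 0.00661%, 0.0266% and 0.167% of all genes were called higher. Without GLUT1EC-/- 3 it called Kif15 and Mki67, against 1.18% of all genes. With all 6 libraries, DESeq2 called 19 members higher, against 3.38% of all genes, 17 of them mitotic. The limma-voom test called Kif15 and Mki67, against 0.62% of all genes, and edgeR with no filter on low counts added Top2a, against 0.838%. The title numbers fall into a lower series (WT 1, WT 2 and GLUT1EC-/- 1) and a higher series (WT 3, GLUT1EC-/- 2 and 3). What the series stand for is not given, and with the series as a term edgeR called 0 members, against 0.0607% of all genes.

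Mki67 encodes Ki-67, the coat protein of mitotic chromosomes whose antigen marks dividing cells. It stood at 2.91, 4.59 and 2.14 CPM in WT against 27.1, 11.1 and 22.0 CPM in GLUT1EC-/-. All 3 GLUT1EC-/- libraries lay above all WT libraries, and GLUT1EC-/- 2 was the lowest of them. Mki67 rose 6.26-fold (95% interval 3.35 to 11.7, log2 fold change 2.65 with SE 0.39, edgeR adjusted p = 0.0242). Its adjusted p was 0.198, 0.0884 and 0.117 without WT 1, 2 and 3, and 0.0739 without GLUT1EC-/- 1.

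Kif15 encodes a kinesin that helps to keep the spindle poles apart. It had 3, 7 and 10 counts in WT and 110, 55 and 98 counts in GLUT1EC-/-, or 0.093, 0.204 and 0.246 CPM against 2.87, 1.64 and 2.65 CPM. The groups did not overlap, and GLUT1EC-/- 2 was again the lowest of its group while well above WT. Kif15 rose 12.8-fold (95% interval 6.11 to 26.7, log2 fold change 3.67 with SE 0.46, edgeR adjusted p = 0.0164). Its adjusted p was 0.128, 0.0956 and 0.0792 without WT 1, 2 and 3, and 0.0608 without GLUT1EC-/- 1. Mki67 spans 135689784 to 135716361 on the minus strand of chromosome 7 and Kif15 spans 122951046 to 123018733 on the plus strand of chromosome 9 (GRCm38, GENCODE M21), and neither shares exon positions with another gene. Kif15 and Aurkb passed the filter on low counts only through the GLUT1EC-/- libraries.

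The sequences before the starts of these genes are shown because the mitotic and replication classes differ in the elements they hold there. The CHR element is read by the MuvB complexes, the CCAAT box is bound by NF-Y, and the E2F element is bound by E2F factors. Sequences are RefSeq promoters on GRCm38.p6, written 5′ to 3′ on the gene's strand, with capitals for matches on either strand.

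Mki67: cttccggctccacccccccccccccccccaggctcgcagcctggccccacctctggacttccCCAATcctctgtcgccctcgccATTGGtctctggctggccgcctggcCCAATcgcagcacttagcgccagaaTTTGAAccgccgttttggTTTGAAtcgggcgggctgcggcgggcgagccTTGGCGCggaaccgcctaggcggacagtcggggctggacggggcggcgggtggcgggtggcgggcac
Kif15: ccgttgggGCGCCAAaTTCAAAtctgcggc

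The Mki67 stretch is chr7:135716380-135716629 on the minus strand, the 250 bases before the RefSeq start, outside every exon of GENCODE M21. It holds 3 CCAAT boxes (188, 166 and 141 bases before the start), 2 CHR matches (116 and 98 bases) and 1 E2F match (67 bases). The Kif15 stretch is chr9:122951046-122951075 on the plus strand, the first 30 bases of the gene in GENCODE M21, which lie before the RefSeq start. Its E2F match (27 bases before the RefSeq start) and its CHR match (19 bases) stand 1 base apart, both on the opposite strand.

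The CHR element was searched as TTTGAA or in its variant form TTCGAA, and the CCAAT box as CCAAT. The E2F element was searched in any of 4 forms, the first being TTCCCGC, the next being TTCGCGC, another being TTGCCGC and the last being TTGGCGC. All were searched on both strands of windows from 250 bases before to 50 after each start. A CCAAT match and an E2F match can share bases, as in Ccnb1. Of the 40 members 32 had an entry, and a gene counted where any of its windows held the motif. CHR matches were found in 16 of 20 mitotic genes (80.0%), 2 of 9 replication genes (22.2%) and 0 of 3 G1 genes, against 20.2% of 17491 protein-coding genes. CCAAT was found in 17 of 20 mitotic and 8 of 9 replication genes, against 42.3% of protein-coding genes. E2F matches ran the other way, in 4 of 20 mitotic genes (20.0%) and 6 of 9 replication genes (66.7%), against 13.7%. Both CHR and CCAAT stood in 15 of 20 mitotic genes, against 9.24%. These counts describe letters in the windows and not binding.

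The kinase that starts mitosis and its cyclins were higher in GLUT1EC-/- 1 and 3 than in GLUT1EC-/- 2. Cdk1, the mitotic kinase, stood at 0.557, 0.584 and 0.369 CPM in WT against 5.72, 0.358 and 5.52 CPM in GLUT1EC-/-. The value of GLUT1EC-/- 2 was below all 3 WT libraries. Ccnb1, the main B-type cyclin, had 5, 8 and 9 counts in WT and 86, 5 and 58 in GLUT1EC-/-, and did not pass the filter on low counts. Ccnb2, its partner cyclin, was at 1.64, 1.37 and 1.55 CPM against 8.98, 1.79 and 4.57 CPM. Ccna2, cyclin A of S and G2 phases, was at 1.92, 2.51 and 2.41 CPM against 11.8, 3.44 and 9.82 CPM. Both Ccnb2 and Ccna2 had groups that did not overlap, by a narrow margin for Ccnb2 (edgeR adjusted p = 0.172 and 0.0879).

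Genes of the spindle checkpoint and of mitotic exit differed in how far GLUT1EC-/- 2 followed. Bub1, a checkpoint kinase, had 1, 0 and 0 counts in WT and 112, 0 and 126 in GLUT1EC-/-, so it was untested. A count of 0 in GLUT1EC-/- 2 allows up to 0.0896 CPM, and counting error alone is covered by that limit. Bub1b, the checkpoint protein BubR1, was at 1.52, 1.37 and 2.07 CPM in WT against 6.66, 2.42 and 6.49 CPM in GLUT1EC-/-. Cdc20, which activates the anaphase-promoting complex, was at 7.24, 5.99 and 7.09 CPM in WT against 13.6, 11.5 and 12.2 CPM in GLUT1EC-/-. It was the mitotic gene with the narrowest spread among the GLUT1EC-/- libraries relative to its mean, and it missed the threshold (log2 fold change 0.88 with SE 0.17, edgeR adjusted p = 0.057). Ube2c, the ubiquitin carrier of the same complex, was at 1.11, 1.31 and 1.16 CPM against 8.22, 2.24 and 4.71 CPM.

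The members that belong to the chromosomal passenger complex, which corrects faulty spindle attachments, had few counts in WT. Aurkb, the Aurora B kinase, had 1, 7 and 6 counts in WT and 123, 12 and 95 counts in GLUT1EC-/-. Birc5, survivin, was at 0.464, 0.380 and 0.345 CPM against 5.90, 0.747 and 3.71 CPM. Cdca8, borealin, was at 0.433, 0.672 and 0.419 CPM against 4.70, 0.179 and 3.27 CPM. For Aurkb and Birc5 the groups did not overlap, while Cdca8 in GLUT1EC-/- 2 was below every WT library. None of these passed (log2 fold changes 3.95, 3.12 and 2.42, with SE of 0.89, 0.69 and 0.90). Incenp, a further subunit outside the 40 members, was not low in WT. It was at 12.5, 11.3 and 11.3 CPM in WT against 16.1, 17.3 and 15.4 CPM in GLUT1EC-/- (edgeR adjusted p = 0.192). Aurka and Plk1, kinases of the centrosome and spindle, had the smallest fitted differences of the class at 0.35 and 0.65. Aurka was at 2.57 to 3.30 CPM in WT against 4.65, 2.39 and 4.36 CPM in GLUT1EC-/-.

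**Figure D2:**
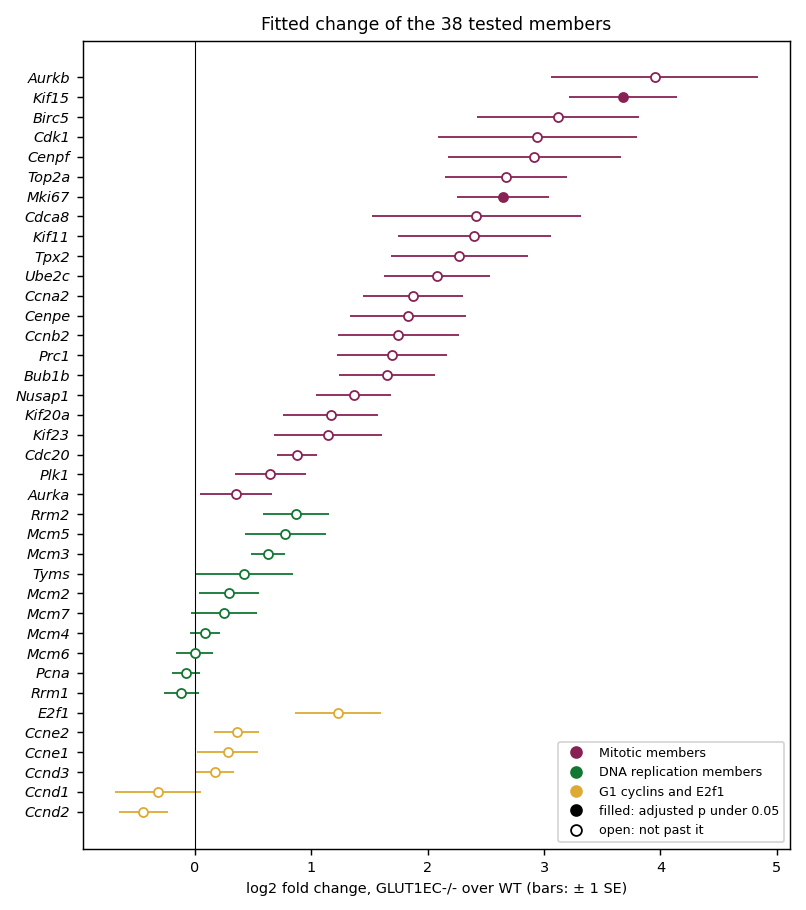
Fitted log2 fold change, GLUT1EC-/- over WT, of the 38 tested members by class, with bars of 1 SE. Filled points (Kif15 and Mki67) passed the adjusted threshold of 0.05. The 22 mitotic members lie from 0.35 to 3.95, the replication members from -0.11 to 0.87 and the G1 members from -0.44 to 1.23.

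The chromosome and spindle genes Top2a, Tpx2 and Kif11 were highest in GLUT1EC-/- 1, next in GLUT1EC-/- 3 and lowest of the group in GLUT1EC-/- 2. Top2a, the topoisomerase that untangles sister chromatids, was at 1.98, 2.66 and 1.03 CPM in WT against 17.8, 4.72 and 13.6 CPM in GLUT1EC-/-, without overlap (edgeR adjusted p = 0.0553). Tpx2, a spindle assembly factor, was at 1.70, 2.07 and 1.43 CPM against 13.3, 2.06 and 9.74 CPM. Kif11, the motor that slides spindle microtubules apart, was at 1.08, 0.876 and 0.493 CPM against 6.79, 1.02 and 5.09 CPM. In both Tpx2 and Kif11 the value of GLUT1EC-/- 2 fell inside the WT range. The kinetochore genes Cenpe and Cenpf had log2 fold changes of 1.83 and 2.92, and the midzone genes Nusap1, Prc1 and Kif20a of 1.37, 1.69 and 1.17, none past the threshold.

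Counted over the class, 24 of 24 mitotic genes in GLUT1EC-/- 1 and 23 of 24 in GLUT1EC-/- 3 were above every WT library, against 30.8% and 31.5% of all genes in the same 2 libraries. In GLUT1EC-/- 2 the number was 16 of 24, against 39.6% of all genes, with 4 inside the WT range and 4 below it. At least 2-fold over the WT mean were 21 genes in GLUT1EC-/- 1 and 19 in GLUT1EC-/- 3, against 3.69% and 4.29% of all genes. In GLUT1EC-/- 2 there were 5 such genes, Mki67, Top2a, Aurkb, Kif15 and Kif23, against 6.25% of all genes. Of the 10 replication genes, 8 in GLUT1EC-/- 1, 3 in GLUT1EC-/- 2 and 8 in GLUT1EC-/- 3 were above every WT library, most by less than 2-fold over the WT mean: 1 reached it in GLUT1EC-/- 1 (Rrm2), 0 in GLUT1EC-/- 2 and 3 in GLUT1EC-/- 3 (Rrm2, Mcm5 and Tyms).

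**Figure D3:**
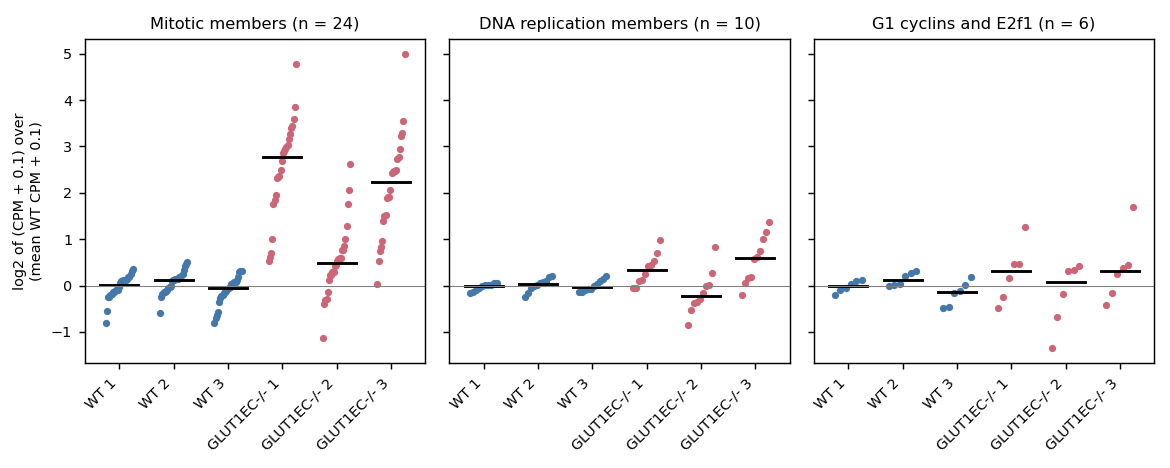
Each point is 1 member in 1 library, as the log2 of its CPM + 0.1 over the mean WT CPM + 0.1, with a black line at the class median. In the mitotic class GLUT1EC-/- 1 and 3 stand well above 0 and GLUT1EC-/- 2 only a little. The replication and G1 medians stay within 1 log2 unit of 0 in every library.

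Kif23, the kinesin of the centralspindlin complex that works in cytokinesis, did not follow the class. It stood at 46.3, 57.7 and 48.6 CPM in WT against 73.2, 212 and 52.1 CPM in GLUT1EC-/-. It was highest in GLUT1EC-/- 2, the library in which only 5 of 24 mitotic genes reached 2-fold over the WT mean. The groups overlapped and the gene did not pass (log2 fold change 1.14 with SE 0.46, edgeR adjusted p = 0.304), and without GLUT1EC-/- 2 the log2 fold change was 0.30. Per kilobase of exon it was the most abundant mitotic gene in WT, at 6.44 RPKM, against 0.00237 to 3.63 RPKM for the other 23. Kif23 alone held 54.3% to 59.3% of the summed mitotic CPM in WT, 27.4% and 26.3% in GLUT1EC-/- 1 and 3, and 77.3% in GLUT1EC-/- 2. The mitotic sum was 2.77-fold higher in GLUT1EC-/- with Kif23 and 3.53-fold higher without it, a choice made after its values were seen.

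Replication genes were expressed in WT well above the mitotic genes. The median level per kilobase of exon in WT was 3.66 RPKM for the replication genes and 0.298 RPKM for the mitotic genes. In GLUT1EC-/- it was 3.998 RPKM and 1.27 RPKM. Without Kif23, the mitotic genes summed to 38.98, 39.6 and 35.6 CPM in WT against 194, 62.3 and 146 CPM in GLUT1EC-/-. The replication genes summed to 327, 333 and 327 CPM in WT against 357, 321 and 377 CPM in GLUT1EC-/-. The mitotic sum per unit of replication sum was 0.119, 0.119 and 0.109 in WT and 0.545, 0.194 and 0.388 in GLUT1EC-/-, so this ratio was higher in each GLUT1EC-/- library than in any WT library.

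The median log2 fold change was 1.98 for the 22 mitotic genes tested and 0.27 for the 10 replication genes, a difference of 1.70, beside a median of 0.01 over all 14838 genes. Among the 20 mitotic genes that passed the filter in every WT library, leaving out Aurkb and Kif15, the median was 1.85. With no filter on low counts, all 24 mitotic genes had a median of 2.17. Leaving out each library in turn gave mitotic medians of 1.54 to 2.58 and differences of 1.31 to 2.07. Within the lower series of title numbers (2 WT, 1 GLUT1EC-/-) the mitotic and replication medians were 2.67 and 0.39, and within the higher series (1 WT, 2 GLUT1EC-/-) 1.74 and 0.13. Members are not replicates of a condition, so this difference carries no test.

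Among the replication genes, Mcm3 had the lowest p. Mcm3, a subunit of the MCM helicase, was at 24.3, 25.2 and 22.6 CPM in WT against 32.9, 43.0 and 35.6 CPM in GLUT1EC-/-. The groups did not overlap, and unlike most mitotic genes it was highest in GLUT1EC-/- 2. It did not pass (log2 fold change 0.63 with SE 0.15, edgeR adjusted p = 0.0895). Rrm2, the S phase subunit of ribonucleotide reductase, was at 3.28, 2.80 and 3.40 CPM against 6.34, 3.82 and 7.14 CPM, also without overlap (log2 fold change 0.87 with SE 0.28, edgeR adjusted p = 0.204). Their upstream sequences, shown beside the mitotic ones, hold CCAAT boxes and no CHR match.

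Mcm3: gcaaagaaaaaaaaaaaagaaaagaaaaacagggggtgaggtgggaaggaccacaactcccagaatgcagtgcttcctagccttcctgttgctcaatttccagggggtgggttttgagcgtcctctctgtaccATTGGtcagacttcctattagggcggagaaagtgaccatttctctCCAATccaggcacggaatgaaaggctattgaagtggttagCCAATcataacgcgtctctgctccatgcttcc
Rrm2: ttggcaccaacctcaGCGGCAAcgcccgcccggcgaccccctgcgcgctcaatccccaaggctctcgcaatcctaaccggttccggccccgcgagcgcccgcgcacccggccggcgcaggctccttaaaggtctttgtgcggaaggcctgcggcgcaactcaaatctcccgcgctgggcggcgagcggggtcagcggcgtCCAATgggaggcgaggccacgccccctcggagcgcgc

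The Mcm3 stretch is chr1:20820313-20820562 on the minus strand, with CCAAT boxes 117, 72 and 32 bases before the RefSeq start. The counted Mcm3 window also holds 3 E2F matches, 19, 39 and 42 bases after the start, beyond the stretch shown. The Rrm2 stretch is chr12:24708004-24708240 on the plus strand and ends where its first GENCODE M21 exon begins. It holds 1 CCAAT box (50 bases before the RefSeq start) and 1 E2F match (235 bases). Neither stretch overlaps an annotated exon.

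The most abundant replication genes did not differ beyond the spread between libraries. Pcna, the sliding clamp of DNA polymerase, was at 145, 146 and 145 CPM in WT against 141, 147 and 127 CPM in GLUT1EC-/- (log2 fold change -0.07 with SE 0.12, edgeR adjusted p = 0.81, fold 0.951 with a 95% interval of 0.785 to 1.15). Rrm1, the large subunit of ribonucleotide reductase, was at 44.3, 45.3 and 38.96 CPM against 41.4, 32.9 and 44.5 CPM (log2 fold change -0.11 with SE 0.15, edgeR adjusted p = 0.758). Mcm4 and Mcm6, also helicase subunits, had log2 fold changes of 0.09 and -0.002. The helicase subunits Mcm2, Mcm5, Mcm6 and Mcm7 and the thymidylate synthase gene Tyms shared a pattern in which GLUT1EC-/- 2 lay below every WT library and GLUT1EC-/- 3 was the highest of all. Mcm5 was at 8.51, 10.5 and 8.32 CPM in WT against 14.9, 8.15 and 23.7 CPM in GLUT1EC-/- (log2 fold change 0.78 with SE 0.35). Tyms was at 3.77, 4.79 and 3.99 CPM against 6.08, 2.27 and 8.47 CPM.

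The 3 D cyclins, which carry growth signals into the cycle in G1, overlapped between the groups. Ccnd1, cyclin D1, was at 127, 117 and 104 CPM in WT against 82.5, 45.3 and 151 CPM in GLUT1EC-/-, so it was both lowest and highest in GLUT1EC-/- libraries. Ccnd2 was at 132, 148 and 87.3 CPM against 102, 75.9 and 91.1 CPM (log2 fold change -0.44 with SE 0.21, edgeR adjusted p = 0.393). Ccnd3 was at 138, 146 and 144 CPM against 161, 126 and 195 CPM (log2 fold change 0.17 with SE 0.17, edgeR adjusted p = 0.681). In GLUT1EC-/- 2 all 3 cyclin D genes were below every WT library. Ccne1 and Ccne2, the E cyclins of S phase entry, had log2 fold changes of 0.28 and 0.36, and Ccne2 had groups that did not overlap.

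E2f1, the E2F factor that is itself switched on with S phase entry, was higher by value in every GLUT1EC-/- library. It was at 1.79, 2.07 and 2.39 CPM in WT against 5.12, 2.63 and 6.98 CPM in GLUT1EC-/-, with no overlap and GLUT1EC-/- 2 just above WT. It did not pass (log2 fold change 1.23 with SE 0.37, edgeR adjusted p = 0.173).

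Other lists of cell cycle genes gave 3 further calls. Of 40 other mitosis genes 32 were tested, 1 rose, 0 fell and 31 did not pass, with a median log2 fold change of 1.12. Over all genes 0.863% rose. In this list 12 had groups that did not overlap and were higher in GLUT1EC-/-, and 2 lower, against 11.7% and 11.2% of all genes. The gene that rose was Anln, anillin of the cytokinetic ring, at 1.27, 1.64 and 1.82 CPM in WT against 10.6, 12.7 and 6.14 CPM in GLUT1EC-/- (log2 fold change 2.63 with SE 0.32, edgeR adjusted p = 0.0164). Like Kif23 it was highest in GLUT1EC-/- 2. DESeq2 called 9 of the list higher, against 3.38% of all genes, and edgeR without GLUT1EC-/- 2 called 22 of 40, against 3.52%. Of 31 other replication genes, 2 rose, 0 fell and 29 did not pass, with a median of 0.63. Here 14 had groups that did not overlap and were higher in GLUT1EC-/-, and 0 lower, against 11.7% and 11.2% of all genes. At an unadjusted edgeR p under 0.05, 14 were higher and 0 lower, against 8.16% and 6.31% of all genes. Among the other mitosis genes these were 18 and 2. The medians of the 2 lists, 1.12 and 0.63, lay closer together than the members' 1.98 and 0.27. DESeq2 also called 9 of the other replication genes higher, and edgeR without GLUT1EC-/- 2 called 10 of 31, against 3.38% and 3.52% of all genes. Gins2, a subunit of the replicative helicase, was at 0.495, 0.818 and 0.640 CPM against 2.43, 2.18 and 2.57 CPM (log2 fold change 1.87, edgeR adjusted p = 0.0413). Pole, the catalytic subunit of DNA polymerase epsilon, was at 0.897, 0.584 and 0.985 CPM against 4.70, 2.12 and 3.98 CPM (log2 fold change 2.12, edgeR adjusted p = 0.0485).

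Regulators that hold cells in or out of the cycle gave no call. Of 11 G1 kinases and E2F partners 0 passed with edgeR or limma-voom and 1 with DESeq2. At an unadjusted edgeR p under 0.05, 3 were higher, against 8.16% of all genes. Cdk4, the partner of the D cyclins, was at 54.7, 57.7 and 59.8 CPM against 61.3, 57.5 and 69.2 CPM. Myc, a growth regulator, was at 26.4, 32.6 and 44.2 CPM against 52.5, 118 and 67.9 CPM, without overlap (edgeR adjusted p = 0.126). Of 10 cell cycle inhibitors tested, 0 passed with edgeR or limma-voom and 1 was lower with DESeq2, with 1 higher and 1 lower at an unadjusted p under 0.05 (6.31% of all genes were lower at that level). Cdkn1a, the gene of p21, was at 748, 874 and 928 CPM in WT against 819, 1728 and 767 CPM in GLUT1EC-/-, highest in GLUT1EC-/- 2, and Btg2, an antiproliferative gene, had a log2 fold change of -0.21. Of 9 genes of the pocket proteins and the DREAM complex 0 passed with any of the 3 tools and 0 had an unadjusted p under 0.05. E2f4 and Rb1, the most abundant of them, had log2 fold changes of 0.01 and 0.04.

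Markers of microglia and fibroblasts were also higher by value in GLUT1EC-/-. Microglia markers were higher by value in 9 of 10, with 3 called (C1qb, C1qc and Trem2). Over all genes 51.5% were higher by value and 0.863% were called higher. The microglia markers summed to 494 to 586 CPM in WT against 989, 767 and 1590 CPM in GLUT1EC-/- 1, 2 and 3. Of the 10, 8 in GLUT1EC-/- 1 and 10 in GLUT1EC-/- 3 were above every WT library, against 30.8% and 31.5% of all genes. In GLUT1EC-/- 2 the list divided, with 4 above every WT library (C1qa, C1qb, C1qc and Trem2) and 5 below every WT library (Cx3cr1, P2ry12, Tmem119, Csf1r and Aif1). C1qc was at 58.6, 63.6 and 68.6 CPM in WT against 184, 174 and 276 CPM in GLUT1EC-/-, and Cx3cr1 at 22.9, 27.2 and 31.7 CPM against 48.6, 16.4 and 75.8 CPM. Fibroblast markers were higher by value in 8 of 8, with 1 called (Dcn), and summed to 99.9 to 117 CPM against 214, 167 and 389 CPM. Of the 8 fibroblast markers, 7, 4 and 8 were above every WT library in GLUT1EC-/- 1, 2 and 3. The shares of all genes were 30.8%, 39.6% and 31.5%, so the 4 in GLUT1EC-/- 2 were near the share there. The part of either list in the mitotic result was not tested. In these bulk libraries more dividing cells and more mRNA per dividing cell cannot be told apart, and neither can the cell type that carried the transcripts.

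**Figure D4:**
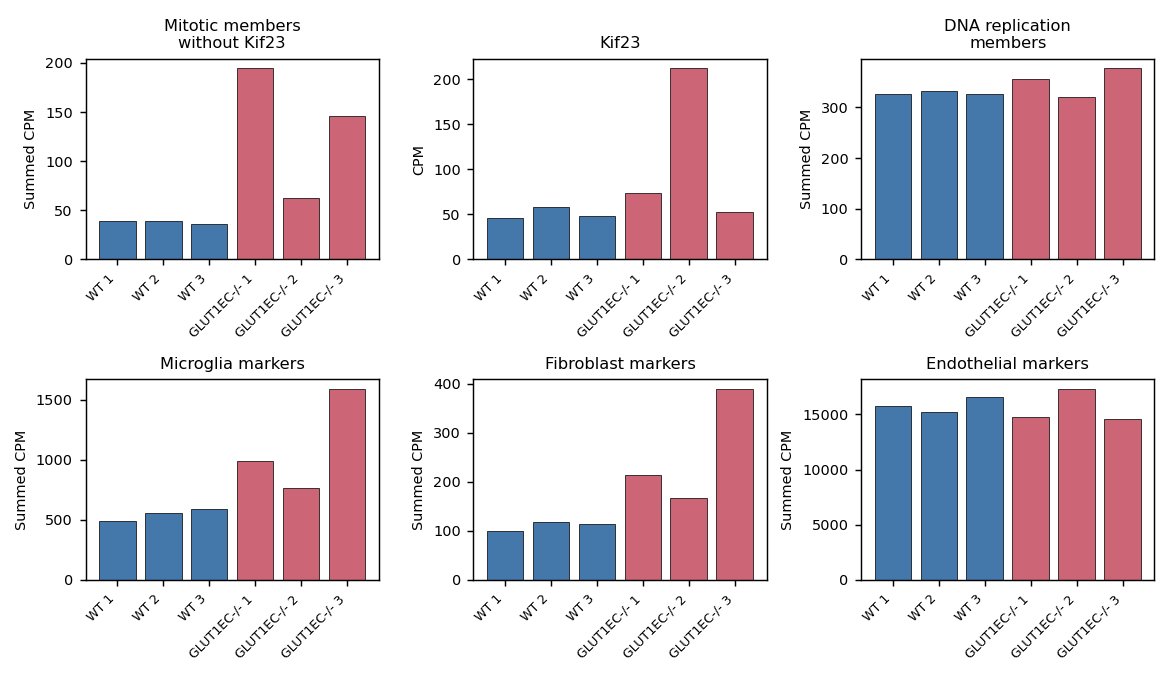
Summed CPM per library of the mitotic members without Kif23, the replication members and 3 marker lists, and the CPM of Kif23, with WT in blue and GLUT1EC-/- in red. The mitotic, microglia and fibroblast sums are all higher in GLUT1EC-/- 1 and 3 than in GLUT1EC-/- 2, whereas Kif23 and the endothelial markers peak in GLUT1EC-/- 2. The mitotic sum is highest in GLUT1EC-/- 1, but the microglia and fibroblast sums are highest in GLUT1EC-/- 3.

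Markers of other cell types that can divide in adult brain or blood were mixed in direction. Of the 9 neural progenitor and neuroblast markers, Neurod1 was at 0 counts in all 6 libraries, Dcx was at 0 to 0.093 CPM, and 1 fell (Nes, 467 to 785 CPM in WT against 192 to 304 CPM in GLUT1EC-/-, edgeR adjusted p = 0.0468). Nes made up nearly all of this list's summed level, and the other 8 markers together were at 4.99 to 5.41 CPM in WT against 3.98 to 4.33 CPM in GLUT1EC-/-. Of the 8 oligodendrocyte precursor markers 5 were tested and 0 passed with edgeR, DESeq2 or limma-voom, with 1 higher and 1 lower at an unadjusted p under 0.05. Olig2 was at 0.235 to 0.788 CPM. The list's sum was mostly Cspg4, and the other 7 markers together were at 11.8 to 14.4 CPM in WT against 13.2, 15.5 and 21.05 CPM in GLUT1EC-/-. Of the 5 tested only Pdgfra, which is also in the fibroblast list, was higher by value. It was at 7.55, 8.35 and 9.68 CPM in WT against 10.9, 12.9 and 17.4 CPM in GLUT1EC-/-. The other 4 were lower by value, with Sox10 at 1.21, 1.23 and 1.97 CPM against 0.757, 0.597 and 0.785 CPM. B lymphocyte markers summed to 14.9 to 16.5 CPM in WT against 4.81 to 8.25 CPM in GLUT1EC-/-, with 1 of 4 tested falling with edgeR and 3 with DESeq2. T and NK lymphocyte markers summed to 9.49 to 13.2 CPM in WT against 13.8, 6.93 and 5.90 CPM in GLUT1EC-/-. Of 6 tested 0 were called with edgeR and 1 was lower with DESeq2. Erythroid markers summed to 414 to 577 CPM against 626, 71.2 and 177 CPM. Most of this sum was Hba-a1 and Hba-a2, which had identical values in every library and are not separate measures. Each was at 232, 201 and 282 CPM in WT against 302, 34.6 and 86.5 CPM in GLUT1EC-/-. Of 8 macrophage and monocyte markers 0 passed with edgeR, while DESeq2 called 1 higher and 1 lower. Over all genes DESeq2 called 5.93% in either direction. Above every WT library were 4, 1 and 4 in GLUT1EC-/- 1, 2 and 3, against 30.8%, 39.6% and 31.5% of all genes. Below were 2, 4 and 2. Without Lyz2 this list summed to 65.5 to 92.2 CPM in WT against 97.7, 94.1 and 116 CPM. Of 8 astrocyte markers 4 were higher and 4 lower by value, and Gfap rose (log2 fold change 2.97, edgeR adjusted p = 0.00669).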

How the data were processed

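The authors deposited raw counts per gene symbol, one table for each of 6 libraries. Per the submitters' processing notes, reads were aligned with STAR to GRCm38 and counted with featureCounts. Versions, annotation and strand setting are not given in the sources used here. Libraries were stranded mRNA libraries read as single ends, per the labels' protocols. Of the 40 members, 11 share exon positions with a coding gene on the other strand and 0 on the same strand (GENCODE M21), so without a stated strand setting those 11 counts are uncertain (Cdc20 and Ccnd3 among them). Ccnb1, Ccnb2, Ccnd3, Pcna and Tyms have named pseudogenes, with which reads could be shared.

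Counts were fitted with edgeR 4.0.16 (R 4.3.3): TMM scaling, filterByExpr (minimum count 10, minimum total 15), robust quasi-likelihood test, genotype as the only term, Benjamini-Hochberg adjustment over 14838 genes at 0.05. SE was computed as |log2 fold change| over the root of the F statistic. CPM uses the TMM-adjusted library total, and RPKM is that CPM per kilobase of merged GENCODE M21 exons. The limit for a count of 0 is 3 counts. That limit covers counting error only, since reads carry no molecular identifiers, whereas the 95% intervals of fold changes come from the edgeR fit and include the spread between libraries. Alternatives used DESeq2 1.42.0 and limma 3.58.1. In simulated counts for this comparison (14644 genes tested) edgeR recovered 90.0% of 4-fold and 57.4% of 2-fold changes, with 4.64% false calls. Those shares need not hold for the members, whose median SE was 0.38 against 0.21 over all genes. A member that did not pass is not thereby shown to be unchanged.

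The members and lists were chosen with earlier results of these data known. Members given in full are those called and, per class, the 2 highest in CPM and the 2 lowest in p. Of each other list, up to 4 called genes are named, and otherwise the 2 of highest CPM. Incenp is named besides, as a subunit of a complex that holds members. The remaining members are given by values, by fitted log2 fold change or by their pattern across libraries. Kif23 was set apart after its values were seen. Promoters shown are those of Mki67 and of the 2 mitotic and 2 replication genes of lowest p with a motif match.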

Additional observations from a re-analysis of the deposited data

How the results depend on the processing

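The number of genes called over all genes was 194, and of members 2. It was 879 genes and 19 members with DESeq2, 14 genes and 0 members with the title number series as a term, and 0 to 862 genes and 0 to 25 members when each library was left out in turn; the cause was not tested. With no filter on low counts 3 members were called (Top2a beside Kif15 and Mki67), and with RLE size factors, library size alone, at least 1 CPM in 3 libraries and limma-voom 2 members were called, Kif15 and Mki67 each time. The median log2 fold change of the replication genes was 0.0171 without GLUT1EC-/- 3 and 0.51 without GLUT1EC-/- 2, the lowest and highest on leaving out 1 library. The mitotic and G1 medians and the mitotic minus replication difference moved by less than the spread between libraries under every alternative run. The sign of Mcm6, near 0 throughout, turned with the number series as a term (0.00957), and its log2 fold change ran from -0.11 to 0.137 on leaving out 1 library (0.0198 without WT 3). That of Ccnd1 ran from -0.86 to 0.00418. No paired analysis was possible because the labels give no replicate numbers shared between the groups: the numbers 1 to 3 used here follow the order of deposit within each group and pair no libraries. Depth limits the members with few counts in WT, such as Bub1, Aurkb and Kif15, and 3 libraries per group limit all tests.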
